A study of Sus scrofa with 15 samples.

Results

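Porcine 4-cell embryos made by somatic cell nuclear transfer and induced to express *TDG* (SCNT4c-TDG) were compared with untreated 8-cell nuclear transfer embryos (SCNT8c), to see which transcripts of the induced embryos exceeded the later stage and which lagged behind it. The comparison used 6 of the 15 RNA-seq libraries of the series, 3 per group, and each embryo library was made from the total RNA of 30 embryos. All embryos were pig (Sus scrofa) and were reconstructed from porcine fetal fibroblasts (PFF). For SCNT4c-TDG the donor fibroblasts had been transfected with a doxycycline-inducible *TDG* vector and selected with puromycin, and the embryos received doxycycline around the 4-cell stage. SCNT8c embryos were untreated. The groups therefore differed in stage, vector, selection and doxycycline at once, and the shares of these in a difference cannot be told apart. The labels give no date of preparation or sequencing batch, and the sample records of the SCNT4c-TDG libraries are not numbered in one block with the others, so a separate preparation or run cannot be told apart from the group either. Untreated 4-cell embryos (SCNT4c) and 4-cell embryos that received *KDM4A* mRNA and the EZH2 inhibitor GSK126 (SCNT4c-KG) gave reference levels. The libraries of SCNT4c and SCNT4c-KG also entered the filter and the estimate of the spread in the fit. The donor fibroblasts served only as a reference level.

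In nuclear transfer a somatic nucleus is placed in an enucleated oocyte. The embryo first lives on transcripts stored in the oocyte, then degrades them and starts its own transcription, a handover called the maternal-to-zygotic transition, which in the pig falls around the 4-cell to 8-cell stages. *TDG* encodes thymine DNA glycosylase, which cuts oxidised forms of 5-methylcytosine out of DNA so that base excision repair can put an unmodified cytosine in their place.

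The deposited values were read counts divided by 1 factor per library, and 18942 of 43294 features passed a mean of 10 over the 12 embryo libraries. The 6 libraries held 17757929 to 19564459 recovered reads. Pearson's r across the tested features was 0.934 to 0.941 between SCNT4c-TDG libraries and 0.742 to 0.878 between SCNT8c libraries, a description across features that are not independent. SCNT8c replicate 3 stood apart from the other two SCNT8c libraries. The median SD of log2 values over tested features was 0.44 in SCNT4c-TDG and 1.04 in SCNT8c, against 0.52 in SCNT8c without replicate 3. Its correlation with SCNT4c-TDG was also the lowest, at 0.693 to 0.723 against 0.733 to 0.782 for replicates 1 and 2. Each SCNT4c-TDG library detected 26425 to 26605 features, and each SCNT8c library 21167 to 23064. The oocyte and cleavage embryo markers *GDF9*, *BMP15* and *TLE6* had no read in either group, nor in SCNT4c. Whether these entries miss reads of their genes was not tested. In both groups 8 of the 12 markers of that list reached a mean of 10. Because RNA was pooled over embryos, fewer cells with a transcript and less transcript per cell cannot be told apart.

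Of the 18942 features, 4681 changed, with a limma adjusted p under 0.05 and a difference above 2-fold, which is 24.7%. In SCNT4c-TDG 2598 features were higher (13.7%) and 2083 were lower (11%) than in SCNT8c. The rises reached further than the falls. A difference above 16-fold was fitted for 611 of the higher and for 180 of the lower features. No read was found in any SCNT8c library for 131 of the higher features, whereas 18 of the lower features had no read in any SCNT4c-TDG library. Of the 4681 changed features, 4522 showed no overlap between the libraries of one group and the other, which held for 40.6% of all tested features. Known genes made up 2037 of the rises and 1550 of the falls, which is 15.9% and 12.1% of the 12799 known genes tested. Assembled transcripts, some of them at the locus of a known gene, made up 561 and 533, with 6143 tested. The gene lists below hold known genes, while the shares set beside them are those of all features.

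**Figure D1:**
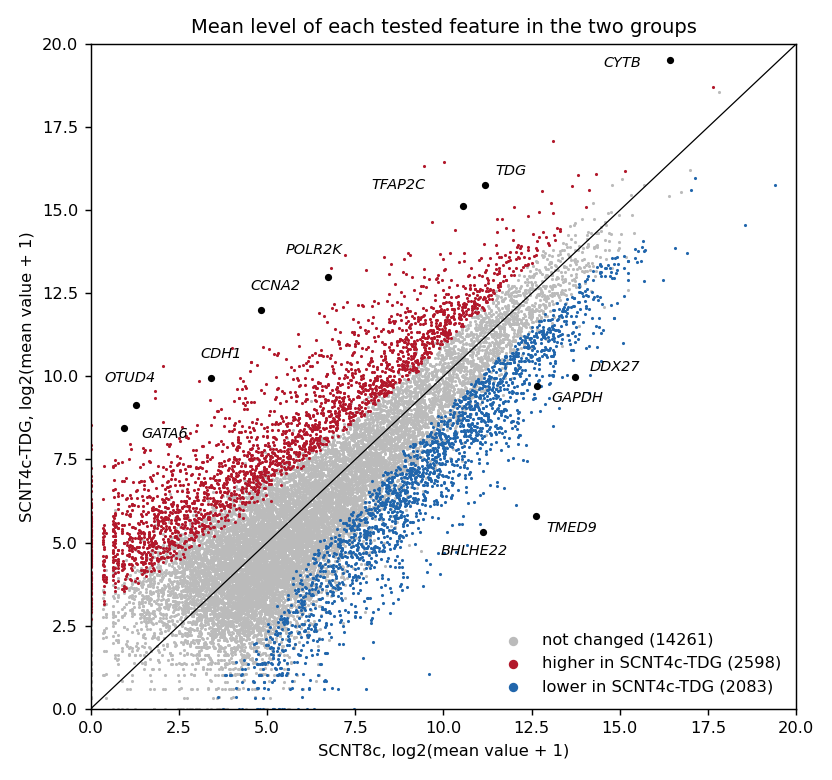
Mean level of each of the 18942 tested features in SCNT8c (x axis) and SCNT4c-TDG (y axis), both as log2(mean value + 1), n = 3 libraries per group. Red points were higher and blue points lower in SCNT4c-TDG, grey points did not change, black points are named genes, and the line marks equal levels; the 2598 red points spread further from the line than the 2083 blue ones.

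Without SCNT8c replicate 3, 5533 of 18990 features changed (29.1%), 3103 higher (16.3%) and 2430 lower (12.8%). Of the 4681 features called with all libraries, 4027 were called in the same direction without it, and none was called in the opposite direction. When the 6 libraries were fitted alone, 3758 of 17945 features changed (20.9%). Which SCNT8c library lay nearest to SCNT4c-TDG depended on the direction. Among the 2083 lower features, replicate 3 was the lowest SCNT8c library for 991, replicate 2 for 667 and replicate 1 for 425. Among the 2598 higher features, replicate 3 was the highest SCNT8c library for 783, replicate 1 for 944 and replicate 2 for 871. Setting all libraries to the same total moved the median log2 fold change of all features by 0.21, from 0.09 to 0.30, and counted 3079 rises and 1722 falls. The differences below are given as fitted, beside that median of 0.09.

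*TDG* itself (chromosome 5, 80473233 to 80492295, minus strand of Sscrofa11.1) was the check of the induction. Its values were 56925, 59944 and 49857 in SCNT4c-TDG and 2340.4, 2052 and 2506 in SCNT8c. All 3 induced libraries stood more than 10 times above every SCNT8c library (log2 fold change 4.59 ± 0.31 (SE), limma adjusted p = 2.23e-07), and the gene-level value does not separate transcripts of the vector from those of the embryo. The reference means were 1713 in SCNT4c, 4366 in SCNT4c-KG and 1151 in PFF. *KDM4A*, an H3K9 demethylase gene that was not manipulated in these embryos, was also higher, at 852, 555 and 918 in SCNT4c-TDG and 162, 134 and 47.5 in SCNT8c (log2 fold change 2.89 ± 0.48 (SE), limma adjusted p = 0.000437). For *EZH2*, the H3K27 methyltransferase gene, the values were 1208, 1179.8 and 983 in SCNT4c-TDG and 1035, 1037 and 375 in SCNT8c. The groups overlapped, with SCNT8c replicate 3 lowest, and the gene did not pass the test (log2 fold change 0.60 ± 0.38 (SE), limma adjusted p = 0.272).

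Among the largest rises were genes that SCNT8c libraries hardly held at all. *TMSB15A* (thymosin beta 15A, an actin monomer binding protein) was at 405, 196 and 512 in SCNT4c-TDG and had no read in SCNT8c, which with a floor of 3 reads per library is at least 131-fold higher (limma adjusted p = 4.24e-06). *OTUD4*, a deubiquitinase gene, was at 595, 649.7 and 448 in SCNT4c-TDG and 0.934, 3.33 and 0 in SCNT8c (log2 fold change 8.10 ± 0.80 (SE), limma adjusted p = 5.84e-06). *PHLDA2*, an imprinted gene that limits placental growth, was at 746, 543 and 966 in SCNT4c-TDG and 0, 3.33 and 4.23 in SCNT8c (log2 fold change 8.02 ± 0.73 (SE), limma adjusted p = 2.88e-06). Each of these was near 0 in all SCNT8c libraries, so the groups lay far apart. *CCNA2*, the cyclin of S phase and mitotic entry, rose from a low but measurable level, 4397, 4039 and 3802 in SCNT4c-TDG and 36.4, 15.8 and 30.6 in SCNT8c (log2 fold change 7.23 ± 0.40 (SE), limma adjusted p = 4.95e-08). *ANG*, a secreted ribonuclease gene, was at 1454, 1484 and 2622 in SCNT4c-TDG and 19.6, 15.8 and 9.51 in SCNT8c (log2 fold change 6.86, limma adjusted p = 1.2e-07), and *CXCL14*, a chemokine gene, was at 1059, 1111 and 599 in SCNT4c-TDG and 12.1, 9.14 and 1.06 in SCNT8c (log2 fold change 7.10, limma adjusted p = 8.26e-05). *AUH*, *BAZ1A* and *RARRES1* had no read in SCNT8c and were at least 86.5, 41.6 and 40.7-fold higher. The *AUH* call rested on the annotation. Summed with assembled transcripts at the same place, *AUH* stood at 361 ± 32.9 (SD, n = 3) and 148 ± 115, and was no longer called (log2 fold change 1.90, limma adjusted p = 0.126). *TXNDC11* and *DCBLD2* completed the 12 largest rises together with *GATA6*, which is described with the lineage genes. The largest rises without a gene name were LOC110257338, at 1734, 1164 and 877 in SCNT4c-TDG and 1.87, 3.33 and 4.23 in SCNT8c, and the long non-coding LOC106506288, at 793, 497 and 649 in SCNT4c-TDG and 0, 3.33 and 4.23 in SCNT8c.

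The 250 bases upstream of the RefSeq start of the longest transcript are shown for the first 3 of these rises, since TDG acts on cytosines that were methylated, which in mammals are mostly those of CpG dinucleotides. Capitals mark CpG; the sequences run 5′ to 3′ on the strand of the gene and come from RefSeq's Sscrofa11.1.
TMSB15A (chrX:83747600-83747849, minus strand): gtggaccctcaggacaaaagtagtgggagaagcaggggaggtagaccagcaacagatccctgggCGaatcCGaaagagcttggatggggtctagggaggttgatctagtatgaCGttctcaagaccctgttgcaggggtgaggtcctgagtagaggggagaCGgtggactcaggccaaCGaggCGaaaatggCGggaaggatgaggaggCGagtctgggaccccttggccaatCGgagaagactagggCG
OTUD4 (chr8:83240509-83240758, plus strand): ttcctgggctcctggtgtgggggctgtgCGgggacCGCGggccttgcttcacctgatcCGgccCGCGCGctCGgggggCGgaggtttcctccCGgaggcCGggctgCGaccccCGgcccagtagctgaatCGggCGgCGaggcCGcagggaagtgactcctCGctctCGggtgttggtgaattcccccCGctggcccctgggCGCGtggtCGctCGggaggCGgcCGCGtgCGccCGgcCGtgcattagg
PHLDA2 (chr2:2058676-2058925, minus strand): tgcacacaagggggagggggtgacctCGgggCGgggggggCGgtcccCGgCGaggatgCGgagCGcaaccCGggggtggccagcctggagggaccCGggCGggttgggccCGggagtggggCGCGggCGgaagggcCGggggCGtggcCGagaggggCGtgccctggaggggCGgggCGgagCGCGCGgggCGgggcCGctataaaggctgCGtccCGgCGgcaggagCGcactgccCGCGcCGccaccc
The windows held 10, 30 and 32 CpG, against a median of 13 over the 12491 windows of tested known genes. No methylation was measured in these libraries.

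Among the largest falls, *TMED9*, a cargo receptor gene of the early secretory pathway, was at 61.9, 79.8 and 23.7 in SCNT4c-TDG and 7141, 9653 and 2089 in SCNT8c (log2 fold change -6.71 ± 0.53 (SE), limma adjusted p = 8.09e-07). *BHLHE22*, a basic helix-loop-helix transcription factor gene, was at 36.8, 39.1 and 40.6 in SCNT4c-TDG and 3242, 2052 and 1350.2 in SCNT8c (log2 fold change -5.71 ± 0.39 (SE), limma adjusted p = 2.28e-07). *DYNLL2*, a dynein light chain gene, was at 57.7, 59.1 and 92.6 in SCNT4c-TDG and 3927, 939 and 7868 in SCNT8c (log2 fold change -5.48 ± 0.55 (SE), limma adjusted p = 6.08e-06). All induced libraries were below all SCNT8c libraries for these genes, and the SCNT4c means, 1843, 3249 and 5829.8, were also far above the induced ones. *CYP1A1*, a target of the aryl hydrocarbon receptor, was at 1.67, 1.53 and 0 in SCNT4c-TDG and 342, 1970.2 and 2.11 in SCNT8c (log2 fold change -6.08 ± 2.01 (SE), limma adjusted p = 0.0373). Its SCNT8c libraries differed widely, and the call was lost when any library other than SCNT8c replicate 3 was left out (limma adjusted p = 0.0776 to 0.147). *ANXA6* was at 4.18, 1.53 and 0 in SCNT4c-TDG and 128, 446 and 50.7 in SCNT8c (log2 fold change -5.93, limma adjusted p = 0.000156) and *SNX11*, a sorting nexin gene, at 48.5, 68.3 and 20.7 in SCNT4c-TDG and 2404, 3508 and 427 in SCNT8c (log2 fold change -5.19, limma adjusted p = 6.19e-05). The metabolic genes *PHGDH*, of serine synthesis, and *ACADS*, of short-chain fatty acid oxidation, were at 10.03, 12.3 and 4.59 in SCNT4c-TDG and 303, 677 and 281 in SCNT8c (log2 fold change -5.37, limma adjusted p = 3.61e-05) and at 30.1, 20.7 and 24.5 in SCNT4c-TDG and 1239.8, 2376 and 342 in SCNT8c (log2 fold change -5.28, limma adjusted p = 0.000334). *SUMF2*, *C6H19orf12*, *NACC1* and *VPREB3* made up the rest of the 12 largest falls, and the *VPREB3* call was lost without SCNT4c-TDG replicate 3 and with a pseudocount of 0.1 (limma adjusted p = 0.0599 and 0.0943). Among features without a gene name, MSTRG.22040 (chromosome 2, 59069334 to 59157208) had no read in SCNT4c-TDG and 110.2, 392 and 25.4 in SCNT8c, at least 74.3-fold lower. MSTRG.130479 (chromosome 14, 128510862 to 128522102) was at 0, 1.53 and 0 in SCNT4c-TDG and 115, 58.2 and 501 in SCNT8c, with 2 reads in all 3 induced libraries (439-fold lower, 95% counting interval 118 to 3524; limma adjusted p = 2.47e-05).

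The same windows are shown for *TMED9* and *CYP1A1*, the first of these falls, with CpG in capitals.
TMED9 (chr2:80368435-80368684, minus strand): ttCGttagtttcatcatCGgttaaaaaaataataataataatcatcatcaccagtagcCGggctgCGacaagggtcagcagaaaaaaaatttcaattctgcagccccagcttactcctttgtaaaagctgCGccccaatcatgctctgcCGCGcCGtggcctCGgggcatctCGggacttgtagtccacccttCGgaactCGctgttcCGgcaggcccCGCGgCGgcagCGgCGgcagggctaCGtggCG
CYP1A1 (chr7:58802650-58802899, plus strand): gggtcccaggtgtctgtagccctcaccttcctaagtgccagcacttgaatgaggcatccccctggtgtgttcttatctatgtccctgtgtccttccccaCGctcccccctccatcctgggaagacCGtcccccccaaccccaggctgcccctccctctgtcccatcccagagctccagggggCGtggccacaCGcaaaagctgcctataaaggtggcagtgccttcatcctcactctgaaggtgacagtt
They held 20 and 4 CpG. The *CYP1A1* window and the *PHLDA2* window each held a TATAAA run, and those of *TMSB15A* and *TMED9* a CCAAT run on one of the strands.

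Several transcription factors of pluripotency and the first lineages exceeded the 8-cell level. Of 26 tested members, 9 were higher (34.6%), 2 lower (7.69%) and 15 did not pass, beside 13.7% and 11% of all features, and the median log2 fold change was 1.0 against 0.09 over all features. *TFAP2C*, an AP-2 factor of trophectoderm and early genome activation, was at 32218, 33428 and 42616 in SCNT4c-TDG and 1569, 1801 and 1158 in SCNT8c (log2 fold change 4.59 ± 0.31 (SE), limma adjusted p = 2.28e-07). *NANOG*, named for a core pluripotency factor, was at 469, 284 and 226 in SCNT4c-TDG and 29.9, 9.14 and 6.34 in SCNT8c (log2 fold change 4.56 ± 0.64 (SE), limma adjusted p = 0.000124). This *NANOG* entry has a single exon (chromosome 1, 169064134 to 169065292), and the 5-exon *NANOG* entry on chromosome 5 (62931642 to 62939086) had no read in the 6 libraries. *GATA6*, which marks the primitive endoderm, was at 437, 304 and 301 in SCNT4c-TDG and at 0, 1.66 and 1.06 in SCNT8c, where 3 reads were found in all (ratio 383, 95% counting interval 126 to 1791; limma adjusted p = 3.65e-06). In all 3 genes the lowest induced library was above the highest SCNT8c library. *KLF2*, a factor of naive pluripotency, was low in both, at 46.8, 30.7 and 30.6 in SCNT4c-TDG and 1.87, 0 and 0 in SCNT8c, where 2 reads were found (ratio 57.9, 95% counting interval 15.9 to 475; limma adjusted p = 0.0133), and the call was lost without SCNT4c-TDG replicate 1 (limma adjusted p = 0.0537). The SCNT4c-KG means of *TFAP2C*, *NANOG* and *GATA6* were 14770.2, 204 and 280.4, and the SCNT4c means 756, 11.7 and 0. The 2 lower members were *DPPA4*, at 140.5, 179 and 117 in SCNT4c-TDG and 700.2, 828 and 309 in SCNT8c (log2 fold change -1.97, limma adjusted p = 0.0128), and *DUXA*, a homeobox gene, at 3899, 3109 and 3585 in SCNT4c-TDG and 10151, 5811 and 15717 in SCNT8c (log2 fold change -1.47, limma adjusted p = 0.00406). *POU5F1*, the gene of OCT4, did not pass the test, at 25.9, 23.8 and 30.6 in SCNT4c-TDG and 162, 164 and 243 in SCNT8c (log2 fold change -2.76, limma adjusted p = 0.0864), with each induced library below each SCNT8c library.

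**Figure D2:**
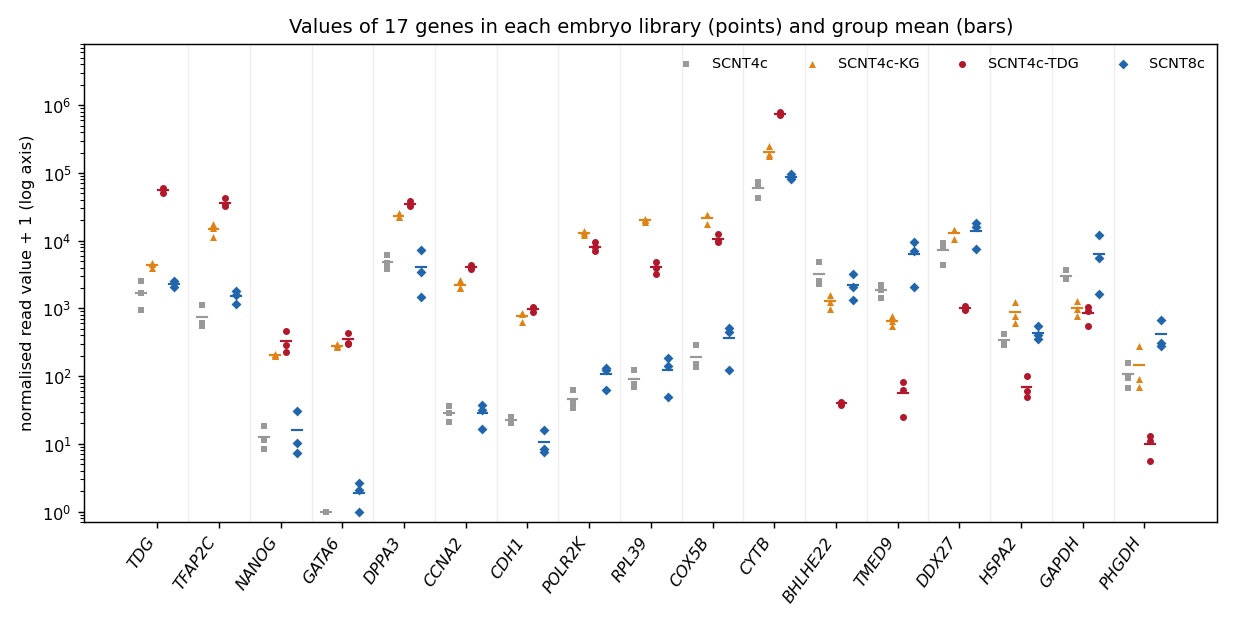
Values of 17 genes in each embryo library (points) with the group mean (bars), as normalised read value + 1 on a log axis, 3 libraries per group. SCNT4c-TDG (red circles) lies above SCNT8c (blue diamonds) for the 11 genes on the left and below it for the 6 on the right.

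Genes of the oocyte list, known for transcripts stored in the oocyte, went both ways. Of 22 tested members of the oocyte list, 6 were higher (27.3%), 6 lower (27.3%) and 10 did not pass, beside 13.7% and 11% of all features, with a median log2 fold change of 0.06. *DPPA3*, a maternal factor that shapes DNA methylation in the zygote, was at 32164, 33558 and 38619 in SCNT4c-TDG and 3410.3, 1452 and 7308 in SCNT8c (log2 fold change 3.39 ± 0.42 (SE), limma adjusted p = 3.94e-05). *ZAR1L* was at 203, 185 and 173 in SCNT4c-TDG and 7.47, 1.66 and 62.3 in SCNT8c (log2 fold change 4.06, limma adjusted p = 0.00419), and *CCNB3*, a cyclin of meiosis, at 149.7, 61.4 and 126 in SCNT4c-TDG and 2.80, 5.82 and 11.6 in SCNT8c (log2 fold change 3.95, limma adjusted p = 0.00122). *ZP3*, a zona pellucida gene, was higher at 73.6, 75.9 and 74.2 in SCNT4c-TDG and 12.1, 2.49 and 15.8 in SCNT8c (log2 fold change 3.04, limma adjusted p = 0.00612), but when assembled transcripts at the same place were added its log2 fold change was 0.69 (limma adjusted p = 0.408). The SCNT4c means of *DPPA3*, *ZAR1L*, *CCNB3* and *ZP3* were 4897, 37.8, 24.3 and 28.1, all below the induced libraries. The 6 lower members were *DAZL*, *PADI6*, *NPM2*, *ZP4*, *H1-8* and *KPNA7*, named because they are all lower members of the list. *DAZL*, a germ cell RNA-binding protein gene, was at 174, 124 and 609.8 in SCNT4c-TDG and 1482, 398 and 5895 in SCNT8c (log2 fold change -2.68, limma adjusted p = 0.0147), and *KPNA7*, an oocyte importin gene, at 12062, 12517 and 11438 in SCNT4c-TDG and 26537, 13366 and 93494 in SCNT8c (log2 fold change -1.42, limma adjusted p = 0.0392). SCNT8c replicate 3 was the highest library for both, and for *DAZL* the groups overlapped. The counts of this list rested on SCNT8c replicate 3. Without it 8 members were higher (36.4%) and 3 lower (13.6%), beside 16.3% and 12.8% of all features. With the 2 groups fitted alone 4 were higher and 2 lower, beside 2080 and 1678 of all 17945 features.

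Some of the machinery that removes such transcripts was above the 8-cell level. In the list of RNA decay and deadenylation genes, 12 of 31 tested members were higher (38.7%) and 2 lower (6.45%), beside 13.7% and 11% of all features, with a median log2 fold change of 0.97. *TOB1*, which recruits the CCR4-NOT deadenylase, was at 2274, 2101 and 2125 in SCNT4c-TDG and 111, 112 and 26.4 in SCNT8c (log2 fold change 4.94 ± 0.53 (SE), limma adjusted p = 1.08e-05). *CNOT7*, a catalytic deadenylase subunit, was at 14692, 15284 and 18420.3 in SCNT4c-TDG and 1446, 1328 and 4035 in SCNT8c (log2 fold change 3.02 ± 0.36 (SE), limma adjusted p = 3.16e-05). *TUT7*, a terminal uridylyltransferase listed in the table as *ZCCHC6*, was at 104, 186 and 165 in SCNT4c-TDG and 17.7, 11.6 and 12.7 in SCNT8c (log2 fold change 3.32, limma adjusted p = 0.00111). These groups did not overlap in any of the 3 genes. *PARN*, the poly(A)-specific ribonuclease gene, was at 13.4, 46.8 and 29.1 with no read in SCNT8c, at least 10.5-fold higher (limma adjusted p = 0.00178).

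Base excision repair is the pathway that completes the work of TDG. Of 22 tested glycosylase and repair genes, 5 were higher (22.7%), the induced gene *TDG* among them, and 4 lower (18.2%), beside 13.7% and 11% of all features, and their median was -0.19. *MBD4*, the other thymine glycosylase gene of vertebrates, was higher together with *TDG*, at 401, 328 and 257 in SCNT4c-TDG and 26.1, 24.1 and 9.51 in SCNT8c (log2 fold change 4.07 ± 0.58 (SE), limma adjusted p = 0.00014). *NEIL2* and *SMUG1*, glycosylase genes for oxidised bases and for uracil, were lower, at 2.51, 3.07 and 3.06 in SCNT4c-TDG and 39.2, 171 and 211 in SCNT8c (log2 fold change -4.88, limma adjusted p = 0.00568) and at 4.18, 27.6 and 24.5 in SCNT4c-TDG and 358, 484 and 228 in SCNT8c (log2 fold change -4.45, limma adjusted p = 0.00252). *FEN1*, the flap endonuclease gene, and *UNG*, the main uracil glycosylase gene, were the other two lower members, with means of 2.88 against 54.7 and 626 against 4289. *PARP1*, *NTHL1* and *PCNA* completed the higher members. Among 16 tested genes of DNA methylation and its removal, 3 were higher (18.8%), the induced *TDG*, *MBD4* and *DPPA3*, and 2 were lower (12.5%), *ZBTB33* and *GADD45A*, shares close to those of all features. *ZBTB33*, the gene of the methyl-CpG binding protein Kaiso, was at 53.5, 69.8 and 74.2 in SCNT4c-TDG and 205, 151 and 611 in SCNT8c (log2 fold change -2.02, limma adjusted p = 0.0104). The other 11, the maintenance methyltransferase gene *DNMT1* and its partner *UHRF1* among them, did not pass the test. Without SCNT8c replicate 3 this list held 6 rises (37.5%) and 2 falls (12.5%), beside 16.3% and 12.8% of all features.

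Genes of the transcription apparatus exceeded the 8-cell stage in a larger share than the 13.7% of all features. Of 48 tested genes of RNA polymerase II and the general factors, 21 were higher (43.8%) and 5 lower (10.4%), with a median log2 fold change of 0.88. *POLR2K*, a small subunit shared by the nuclear polymerases, was at 6946, 8094 and 9408 in SCNT4c-TDG and 120.4, 131 and 62.3 in SCNT8c (log2 fold change 6.33 ± 0.35 (SE), limma adjusted p = 4.95e-08). *POLR2F*, a further shared subunit, was at 1851, 1741 and 1972 in SCNT4c-TDG and 187, 144 and 67.6 in SCNT8c (log2 fold change 3.91, limma adjusted p = 4.44e-06), and the Mediator gene *MED10* at 3721, 3544 and 3314 in SCNT4c-TDG and 323, 330.0 and 111 in SCNT8c (log2 fold change 3.94, limma adjusted p = 3.85e-05). For each of them all induced libraries stood at least 9 times above the highest SCNT8c library. *MED14* was low, at 59.4, 51.4 and 58.2 in SCNT4c-TDG and 0.934, 0 and 14.8 in SCNT8c (log2 fold change 4.19, limma adjusted p = 0.0131), and was not called by edgeR on the recovered reads (adjusted p = 0.0673). The summed *MED14* locus was at 102 ± 33.1 against 10.4 ± 4.15 (SD, n = 3; log2 fold change 3.18, limma adjusted p = 0.00628). *SUPT4H1*, the gene of an elongation factor, was at 14029.6, 16862 and 14889.9 in SCNT4c-TDG and 5969, 4425 and 2680.4 in SCNT8c (log2 fold change 1.88, limma adjusted p = 0.000257). Of 62 tested splicing genes, 23 were higher (37.1%) and 6 lower (9.68%), with a median of 0.64. *SNRPF* and *LSM7*, small proteins of the spliceosome rings, were at 2934, 3605 and 4271 in SCNT4c-TDG and 104, 116 and 68.7 in SCNT8c (log2 fold change 5.23, limma adjusted p = 6.02e-07) and at 3964, 3732 and 5682 in SCNT4c-TDG and 163, 161 and 307 in SCNT8c (log2 fold change 4.44, limma adjusted p = 1.55e-06). *DHX15*, a helicase gene of spliceosome disassembly, was at 774, 621 and 561 in SCNT4c-TDG and 17.7, 23.3 and 11.6 in SCNT8c (log2 fold change 5.18, limma adjusted p = 4.53e-06), and *SRSF2* at 172, 146 and 116 in SCNT4c-TDG and 5.60, 3.33 and 3.17 in SCNT8c (log2 fold change 4.87, limma adjusted p = 0.00108). Among the lower splicing genes *HNRNPA1*, named after its values were seen, was abundant, at 13809.7, 12234 and 14412 in SCNT4c-TDG against 139636, 109914 and 118733 in SCNT8c (log2 fold change -3.18, limma adjusted p = 2.41e-07).

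Of 70 tested cytosolic ribosomal protein genes, 42 were higher (60%) and 5 lower (7.14%), and the median log2 fold change was 1.66. *RPL39* was at 3974, 3261 and 4915 in SCNT4c-TDG and 141, 181 and 47.5 in SCNT8c (log2 fold change 5.21 ± 0.43 (SE), limma adjusted p = 1.31e-06). *RPL19* was at 9176, 8852 and 7704 in SCNT4c-TDG and 394, 457 and 201 in SCNT8c (log2 fold change 4.69, limma adjusted p = 3.1e-06), *RPL31* at 4407, 4738 and 4574 in SCNT4c-TDG and 227, 313 and 79.2 in SCNT8c (log2 fold change 4.67, limma adjusted p = 2.66e-06) and *RPS15A* at 162, 143 and 181 in SCNT4c-TDG and 2.80, 9.98 and 1.06 in SCNT8c (log2 fold change 5.20, limma adjusted p = 0.000111). Every induced library was above every SCNT8c library in these genes. Ribosomal protein genes have near-identical copies in the genome, and the authors mapped reads uniquely, so reads that match several copies are not in these values. The SCNT4c-KG means of *RPL39* and *RPL19*, 19957 and 18239, were above both groups. *RPL4*, *RPL3*, *RPS3A*, *RPL14* and *RPSA* were the 5 lower members, with log2 fold changes of -1.89 to -1.38. Without SCNT8c replicate 3 the ribosomal protein counts were 39 and 7 of 71 (54.9% and 9.86%), beside 16.3% and 12.8% of all features. Of 65 ribosome biogenesis genes, 14 were higher (21.5%) and 20 lower (30.8%), beside 13.7% and 11% of all features, with a median of 0.07. *NCL*, the gene of nucleolin, was at 87.8, 49.9 and 62.7 with no read in SCNT8c, at least 23.7-fold higher. This *NCL* entry was also near 0 in PFF and SCNT4c (means 1.25 and 0.57) and had a mean of 23.1 in SCNT4c-KG. Whether it holds all reads of the gene was not tested. *UTP20* was at 331, 349.8 and 334 in SCNT4c-TDG and 14.00, 19.95 and 12.7 in SCNT8c (log2 fold change 4.38, limma adjusted p = 0.000606). *DDX27*, a helicase gene of large-subunit assembly, was lower, at 951, 1072 and 979 in SCNT4c-TDG and 15666, 18021 and 7417 in SCNT8c (log2 fold change -3.68 ± 0.35 (SE), limma adjusted p = 4.07e-06), as was *RRP1*, at 0, 0.767 and 3.83 in SCNT4c-TDG and 28.01, 35.7 and 25.4 in SCNT8c (log2 fold change -3.90, limma adjusted p = 0.0186), which was not called without SCNT4c-TDG replicate 1 or 2 (limma adjusted p = 0.0826 and 0.0607) or by edgeR on the recovered reads (adjusted p = 0.0635). With the same total in each library this list held 19 rises and 18 falls, beside 3079 and 1722 among all 18942 features.

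Mitochondrial transcripts took a larger share of the induced libraries. Features of the mitochondrial genome held 8.26% to 9.42% of the summed values in SCNT4c-TDG and 1.49% to 2.30% in SCNT8c, against 0.909% to 1.39% in SCNT4c and 1.76% to 2.47% in SCNT4c-KG. Only 4 of the 13 mitochondrial protein genes were tested, and the other 9 were listed at 0 in all 6 libraries. *CYTB*, of respiratory complex III, was at 710784, 791242 and 746487 in SCNT4c-TDG and 82079.6, 95162 and 85858 in SCNT8c (log2 fold change 3.10 ± 0.23 (SE), limma adjusted p = 5.2e-07). *ND6* was at 43705, 57636 and 44287 in SCNT4c-TDG and 7637, 10395 and 3396 in SCNT8c (log2 fold change 2.90, limma adjusted p = 0.000287), and *ND4* was called too. *ND5* was at 403415, 482025 and 389398 in SCNT4c-TDG and 223613, 235834 and 159048 in SCNT8c (log2 fold change 1.06, limma adjusted p = 0.00428), a smaller step that fell below 2-fold without SCNT8c replicate 3 or SCNT4c-TDG replicate 2 (log2 fold change 0.88 and 0.96) and with array weights (0.996), and was at 0.58 with quantile normalization (limma adjusted p = 0.18). The nuclear-encoded genes of oxidative phosphorylation gave 28 rises (54.9%) and 6 falls (11.8%) among 51 tested, beside 13.7% and 11% of all features, with a median of 1.47. *COX5B*, of cytochrome oxidase, was at 9420.2, 9898 and 12438 in SCNT4c-TDG and 447, 519 and 124 in SCNT8c (log2 fold change 5.10 ± 0.46 (SE), limma adjusted p = 2.6e-06), and *NDUFS3*, of complex I, at 3526, 3384 and 3281 in SCNT4c-TDG and 171, 254 and 90.9 in SCNT8c (log2 fold change 4.42, limma adjusted p = 1.18e-06). *SDHC*, of succinate dehydrogenase, was lower in all induced libraries, at 81.95, 107 and 30.6 in SCNT4c-TDG and 2008, 2558 and 1065 in SCNT8c (log2 fold change -4.75 ± 0.49 (SE), limma adjusted p = 8.39e-06). Without SCNT8c replicate 3 the counts of this list were 24 and 10 (47.1% and 19.6%) and its median 0.97, beside 16.3% and 12.8% of all features. With the 2 groups fitted alone its counts were 23 and 3, beside 2080 and 1678 of all 17945 features. Of 63 mitochondrial ribosomal protein genes, 24 were higher (38.1%) and 13 lower (20.6%). With the 2 groups fitted alone this list had 18 higher and 8 lower members, beside 2080 and 1678 of all 17945 features. The largest rise was that of *MRPL57*, at 207, 123 and 171 in SCNT4c-TDG and 0, 0 and 2.11 in SCNT8c with 2 reads in SCNT8c (ratio 237, 95% counting interval 73.7 to 2198). *MRPL20* was at 4935, 4395 and 3962 in SCNT4c-TDG and 278, 214 and 261 in SCNT8c (log2 fold change 4.14, limma adjusted p = 5.83e-07) and *MRPL27* at 675, 788 and 699 in SCNT4c-TDG and 37.3, 37.4 and 12.7 in SCNT8c (log2 fold change 4.73, limma adjusted p = 9.94e-06).

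Stress and cell death genes changed in both directions. Of 28 tested targets of the integrated stress response, the programme that ATF4 drives, 10 were lower (35.7%) and 5 higher (17.9%), beside 11% and 13.7% of all features, and the median log2 fold change was -0.61. *PHGDH*, given above, fell furthest. *STC2* was at 18.4, 20.7 and 3.06 in SCNT4c-TDG and 433, 436 and 162 in SCNT8c (log2 fold change -4.71 ± 0.70 (SE), limma adjusted p = 0.000188) and *GDF15*, a secreted stress cytokine gene, at 10.03, 5.37 and 13.8 in SCNT4c-TDG and 51.3, 707 and 162 in SCNT8c (log2 fold change -4.17, limma adjusted p = 0.0181). The summed *STC2* locus was at 42.2 ± 5.02 against 356 ± 155 (SD, n = 3; log2 fold change -2.93, limma adjusted p = 0.00048), a smaller fall. The *GDF15* call was lost without SCNT4c-TDG replicate 2 or SCNT8c replicate 2 (limma adjusted p = 0.0702 and 0.0741) and with a pseudocount of 0.1 (limma adjusted p = 0.0979). *XPOT*, a tRNA exporter gene, was higher, at 169.8, 159 and 168 in SCNT4c-TDG and 6.53, 35.7 and 7.40 in SCNT8c (log2 fold change 3.65, limma adjusted p = 0.000983). Of 22 p53 targets and apoptosis genes, 7 were lower (31.8%) and 4 higher (18.2%), with a median of -0.93. *BID*, which links death receptors to mitochondria, was at 1935, 2077 and 1351 in SCNT4c-TDG and 11258, 9151 and 3892 in SCNT8c (log2 fold change -2.07 ± 0.38 (SE), limma adjusted p = 0.00107). *FDXR* was at 25.1, 21.5 and 16.8 in SCNT4c-TDG and 864, 949 and 361 in SCNT8c (log2 fold change -4.93, limma adjusted p = 1.44e-05). The groups did not overlap for either gene. *MDM2*, the ubiquitin ligase gene of p53, was higher at 81.1, 128 and 54.3 in SCNT4c-TDG and 9.34, 13.3 and 4.23 in SCNT8c (log2 fold change 3.19, limma adjusted p = 0.0193), and was not called once assembled transcripts at the same place were added (log2 fold change 0.23, limma adjusted p = 0.838) or without SCNT4c-TDG replicate 1 or 2 (limma adjusted p = 0.0638 and 0.0914).

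Chaperone genes gave 6 rises (16.7%) and 10 falls (27.8%) among 36 tested, beside 13.7% and 11% of all features, with a median of -0.16. *CCT5*, a chaperonin subunit gene, was at 3806, 3701 and 2936 in SCNT4c-TDG and 20284, 24541 and 12400.5 in SCNT8c (log2 fold change -2.41 ± 0.29 (SE), limma adjusted p = 3.42e-05), and *PDIA6*, of the endoplasmic reticulum, at 438, 377 and 419 in SCNT4c-TDG and 1619, 1982 and 1302 in SCNT8c (log2 fold change -1.97, limma adjusted p = 0.000245). *HSPA2* was at 100.3, 58.3 and 47.4 in SCNT4c-TDG and 351, 542 and 399 in SCNT8c (log2 fold change -2.68, limma adjusted p = 0.000266). The small heat shock protein gene *HSPB1* went the other way, with 35.96, 41.4 and 29.1 against no read, at least 12.6-fold higher (limma adjusted p = 0.0181), but was not called without SCNT4c-TDG replicate 1 or 2 (limma adjusted p = 0.0566 and 0.0612). That bound holds for the gene's own entry: the summed *HSPB1* locus was at 64.5 ± 4.40 against 12.8 ± 9.96 (SD, n = 3; log2 fold change 2.47, limma adjusted p = 0.0234). Proteasome genes gave 14 rises (35%) and 5 falls (12.5%) among 40. *PSMA3*, of the core particle, was at 11198, 13143 and 10975 in SCNT4c-TDG and 526, 666 and 218 in SCNT8c (log2 fold change 4.79 ± 0.36 (SE), limma adjusted p = 5.2e-07), and *POMP*, named for its assembly chaperone and classed as non-coding in this RefSeq annotation, at 8236, 7934 and 8149.6 in SCNT4c-TDG and 529, 691 and 428 in SCNT8c (log2 fold change 3.91, limma adjusted p = 1.73e-07). The deubiquitinase gene *USP5* was lower, at 237, 199 and 133 in SCNT4c-TDG and 1044, 983 and 614 in SCNT8c (log2 fold change -2.21, limma adjusted p = 0.000437).

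Cell cycle genes rose in 15 of 49 tested members (30.6%) and fell in 4 (8.16%), beside 13.7% and 11% of all features, with a median log2 fold change of 0.67. Besides *CCNA2*, the largest rises were those of replication licensing and checkpoint genes. *ORC1*, the largest subunit of the origin recognition complex, was at 329, 347 and 800.4 in SCNT4c-TDG and 12.1, 4.16 and 16.9 in SCNT8c (log2 fold change 5.40 ± 0.60 (SE), limma adjusted p = 1.57e-05). *ORC2* was at 92.8, 129 and 90.3 with no read in SCNT8c, at least 36.9-fold higher. *BUB1B*, of the spindle checkpoint, was at 66.1, 75.2 and 99.5 in SCNT4c-TDG and 0.934, 1.66 and 1.06 in SCNT8c (log2 fold change 5.19, limma adjusted p = 0.000262). Its summed locus was at 81.6 ± 17.9 against 6.86 ± 6.15 (SD, n = 3; log2 fold change 3.68, limma adjusted p = 0.00265). The 4 lower members were *E2F2*, *CCND2*, *CDKN2B* and *MCM7*, with log2 fold changes of -2.88 to -1.52.

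Of 26 tested genes of H3K9 and H3K27 methylation, 6 were higher (23.1%) and 4 lower (15.4%), beside 13.7% and 11% of all features, with a median of -0.23. With the 2 groups fitted alone 4 were higher and 1 lower, beside 2080 and 1678 of all 17945 features. *KDM3A*, an H3K9 demethylase gene, was at 786, 749 and 849 in SCNT4c-TDG and 31.7, 1.66 and 27.5 in SCNT8c (log2 fold change 5.88 ± 0.86 (SE), limma adjusted p = 0.000176). The summed *KDM3A* locus was at 1033 ± 62.3 against 52.2 ± 18.7 (SD, n = 3; log2 fold change 4.33, limma adjusted p = 4.16e-06). *ATRX*, a chromatin remodeller gene of heterochromatin, was at 443, 389 and 509 in SCNT4c-TDG and 121, 117 and 79.2 in SCNT8c (log2 fold change 2.08, limma adjusted p = 0.00642). *KDM7A* was at 266, 200.2 and 449 in SCNT4c-TDG and 72.8, 21.6 and 152 in SCNT8c (log2 fold change 2.19, limma adjusted p = 0.0332), a call that was lost when any library other than SCNT8c replicate 3 was left out (limma adjusted p = 0.0536 to 0.135). Among 38 remodelling and acetylation genes, 10 were higher (26.3%) and 9 lower (23.7%). The acetyltransferase gene *KAT6A* was at 1304, 1504 and 1239.5 in SCNT4c-TDG and 95.2, 181 and 211 in SCNT8c (log2 fold change 3.12 ± 0.36 (SE), limma adjusted p = 2.11e-05), the deacetylase gene *HDAC3* at 103, 44.5 and 77.3 in SCNT4c-TDG and 0.934, 1.66 and 13.7 in SCNT8c (log2 fold change 4.08, limma adjusted p = 0.0069), and *SMARCD2*, of the SWI/SNF complex, at 147, 132 and 148 in SCNT4c-TDG and 1215, 1398 and 1052 in SCNT8c (log2 fold change -3.09, limma adjusted p = 4.19e-06). *SMARCD2* was the one of these 3 that was lower.

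Of 30 compaction and junction genes, 5 were higher (16.7%) and 4 lower (13.3%), close to the shares of all features. *CDH1*, the gene of E-cadherin on which compaction depends, was at 1059, 1014 and 871 in SCNT4c-TDG and 6.53, 7.48 and 14.8 in SCNT8c (log2 fold change 6.61 ± 0.45 (SE), limma adjusted p = 2.41e-07). Every induced library was more than 50 times above every SCNT8c library. The size of that difference depended on the annotation: summed with assembled transcripts at the same place *CDH1* stood at 1196 ± 176 and 226 ± 147 (SD, n = 3), with log2 fold change 2.70 and limma adjusted p = 0.00243. The claudin gene *CLDN7* was at 1297, 1286 and 1009 in SCNT4c-TDG and 298, 298 and 226 in SCNT8c (log2 fold change 2.13, limma adjusted p = 9.81e-05), and the desmosomal gene *DSP* at 199.9, 203 and 176 in SCNT4c-TDG and 79.4, 44.9 and 4.23 in SCNT8c (log2 fold change 2.85, limma adjusted p = 0.0135). The *DSP* call was lost with the 2 groups fitted alone (limma adjusted p = 0.0634), and its log2 fold change was 1.67 without SCNT8c replicate 3 and 2.01 for the summed locus. *CLDN4* was lower, at 86.97, 16.9 and 10.7 in SCNT4c-TDG and 95.2, 128 and 470.2 in SCNT8c (log2 fold change -2.77, limma adjusted p = 0.0299), and was not called without SCNT8c replicate 3, SCNT4c-TDG replicate 2 or SCNT4c-TDG replicate 3 (limma adjusted p = 0.0894, 0.106 and 0.134).

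Glycolytic genes gave 3 rises (15%) and 5 falls (25%) among 20 tested, beside 13.7% and 11% of all features. *LDHA*, of lactate production, was at 164, 578 and 371 in SCNT4c-TDG and 8.40, 4.16 and 8.45 in SCNT8c (log2 fold change 5.41 ± 0.76 (SE), limma adjusted p = 0.000114). *ALDOC* was at 418, 335 and 152 in SCNT4c-TDG and 1444, 2319 and 1386 in SCNT8c (log2 fold change -2.58, limma adjusted p = 0.00016). *GAPDH*, often used as a reference gene, was at 1054, 921 and 553 in SCNT4c-TDG and 5479, 12122 and 1649 in SCNT8c, so that the highest induced library lay below the lowest SCNT8c library (log2 fold change -2.56 ± 0.53 (SE), limma adjusted p = 0.0024). Against SCNT8c replicates 1 and 2 the list's median difference was -0.67 and -1.03, and against replicate 3 it was 0.53. Of the remaining genes chosen by name, *KLF17* was listed at 0 in all 6 libraries while its locus held assembled transcripts (909.8 ± 71.9 against 360.1 ± 192, SD, n = 3; limma adjusted p = 0.0128 in the fit of summed loci). *PNRC1*, *UBTFL1* and *ZSCAN4*, a gene of zygotic genome activation, did not reach the mean of 10 and were not tested. *ZSCAN4* was at 6.69, 0 and 0 in SCNT4c-TDG and 19.6, 2.49 and 2.11 in SCNT8c, with overlapping groups. *TRIM8* was at 22.6, 6.90 and 2.30 in SCNT4c-TDG and 5.60, 18.3 and 43.3 in SCNT8c (log2 fold change -1.07, limma adjusted p = 0.581).

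**Figure D3:**
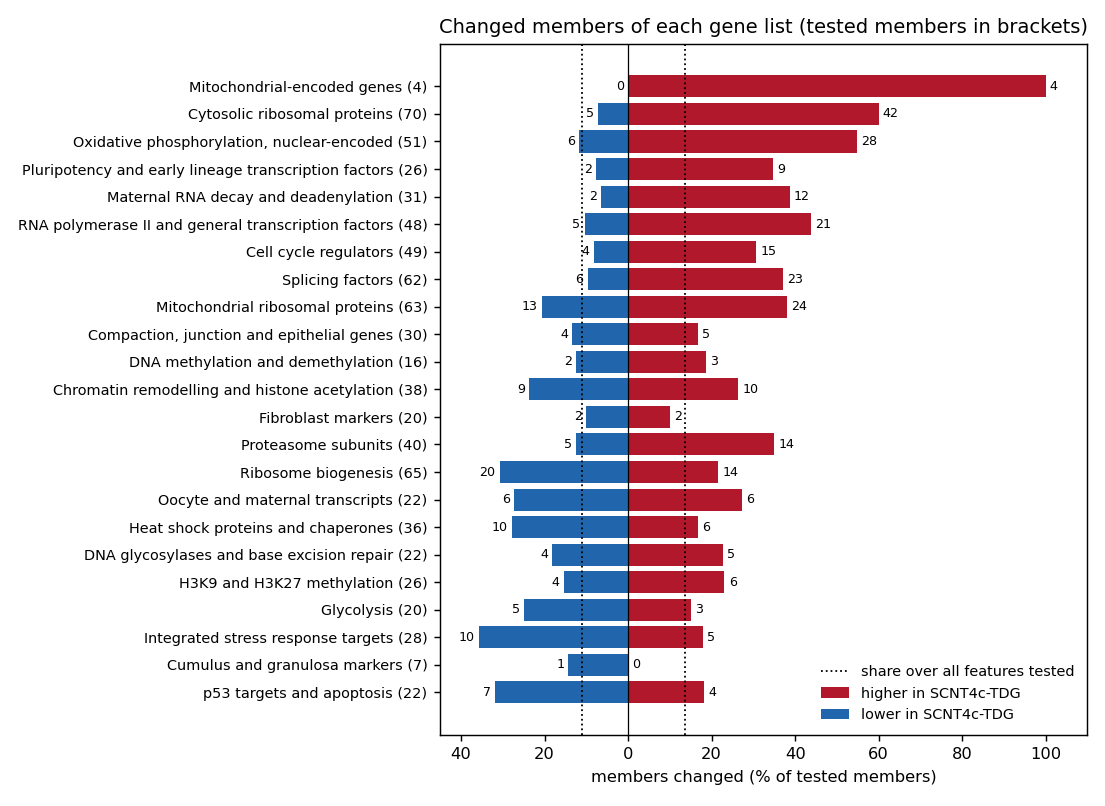
Share of the tested members of each of 23 gene lists that were higher (red, to the right) or lower (blue, to the left) in SCNT4c-TDG, with the number of members at the bar ends and the tested members in brackets. Dotted lines mark the shares over all 18942 features, 13.7% and 11%; cytosolic ribosomal protein genes reach 60% to the right and integrated stress response targets 35.7% to the left.

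Fibroblast marker transcripts were few in both groups beside the donor cells. For cumulus and granulosa markers the series holds no follicle cell library as a reference. The 28 fibroblast markers in the table summed to 4043 to 5426 in SCNT4c-TDG and 4879 to 6245 in SCNT8c, against 4725590 to 5108210 in PFF. *COL5A1*, *FBN1* and *PDGFRA* had no read in either embryo group, and *PDGFRA* had none in PFF. Of the 20 tested, 2 were higher (10%, beside 13.7% of all features), *S100A4* at 191, 193 and 167 in SCNT4c-TDG and 0, 3.33 and 0 in SCNT8c (log2 fold change 6.82, limma adjusted p = 1.72e-05) and *LGALS1*, and 2 were lower (10%, beside 11%), *SPARC* at 125, 171 and 96.4 in SCNT4c-TDG and 1150.2, 2014 and 1558 in SCNT8c (log2 fold change -3.58, limma adjusted p = 6.99e-05) and *COL1A2*. Without SCNT8c replicate 3, 4 were higher (20%) and 3 lower (15%), beside 16.3% and 12.8% of all features. The *COL1A2* call was lost in 7 alternatives, the fit of the 2 groups among them (limma adjusted p = 0.0579). The 19 cumulus and granulosa markers summed to 1866 to 3649 and 4010 to 6501, *AMH*, *FOXL2*, *HSD3B1*, *INHA* and *PTX3* had no read in either group, and of 7 tested 1 was lower (14.3%, beside 11% of all features), *INHBA*, at 517, 506 and 436 in SCNT4c-TDG and 1257, 1389 and 1815 in SCNT8c (log2 fold change -1.60, limma adjusted p = 0.000675). This *INHBA* entry is a partial 1-exon model on chromosome 12 (53115379 to 53117128) that RefSeq does not class as protein-coding, and the protein-coding *INHBA* entry on chromosome 18 had no read in the 6 libraries. The part of such cells in the differences was not tested.

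Which lists exceeded the 8-cell stage depended in part on the SCNT8c library. Against each of the 3 SCNT8c libraries the medians of the ribosomal protein, oxidative phosphorylation, transcription apparatus, RNA decay, lineage factor and cell cycle lists were above 0. For ribosomal proteins they were 1.30, 1.29 and 2.49 for replicates 1, 2 and 3, and for oxidative phosphorylation 1.2, 0.70 and 2.43. The medians of chaperone, glycolysis, repair, ribosome biogenesis and H3K9 and H3K27 methylation genes were below 0 against replicates 1 and 2 and above 0 against replicate 3. For p53 targets they were -0.93, -0.91 and -0.01. Without SCNT8c replicate 3, 16.3% of all features were higher and 12.8% lower. Higher members then made up 28% of 50 cell cycle, 40% of 50 transcription apparatus, 33.3% of 63 splicing, 37.5% of 32 RNA decay and 38.5% of 26 lineage factor genes, and lower members 12%, 12%, 12.7%, 6.25% and 11.5%. In ribosome biogenesis 15.4% of 65 were higher and 35.4% lower, and in the integrated stress response list 17.9% of 28 and 42.9%. The shares were 30.2% and 25.4% for 63 mitochondrial ribosomal protein, 32.5% and 20% for 40 proteasome and 28.9% and 31.6% for 38 remodelling and acetylation genes. Over all tested features the medians against replicates 1, 2 and 3 were -0.01, 0.19 and -0.03.

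Leaving out SCNT8c replicate 3 moved the fold change of some genes above by more than 1.5 times. Among the rises the log2 fold change became 6.27 for *CXCL14*, 4.27 for *TOB1*, 4.44 for *COX5B*, 5.30 for *ZAR1L*, 4.98 for *HDAC3*, 2.82 for *KDM7A* and 5.36 for *MED14*. Among the falls it became -7.37 for *TMED9*, -8.76 for *CYP1A1*, -6.67 for *ANXA6*, -6.28 for *SUMF2*, -4.80 for *DYNLL2*, -6.06 for *ACADS*, -6.20 for *NACC1*, -6.11 for *SNX11*, -6.21 for *VPREB3*, -1.42 for *ZBTB33*, -3.32 for *GAPDH*, -2.08 for *CLDN4*, -5.92 for MSTRG.130479 and -7.71 for MSTRG.22040.

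**Figure D4:**
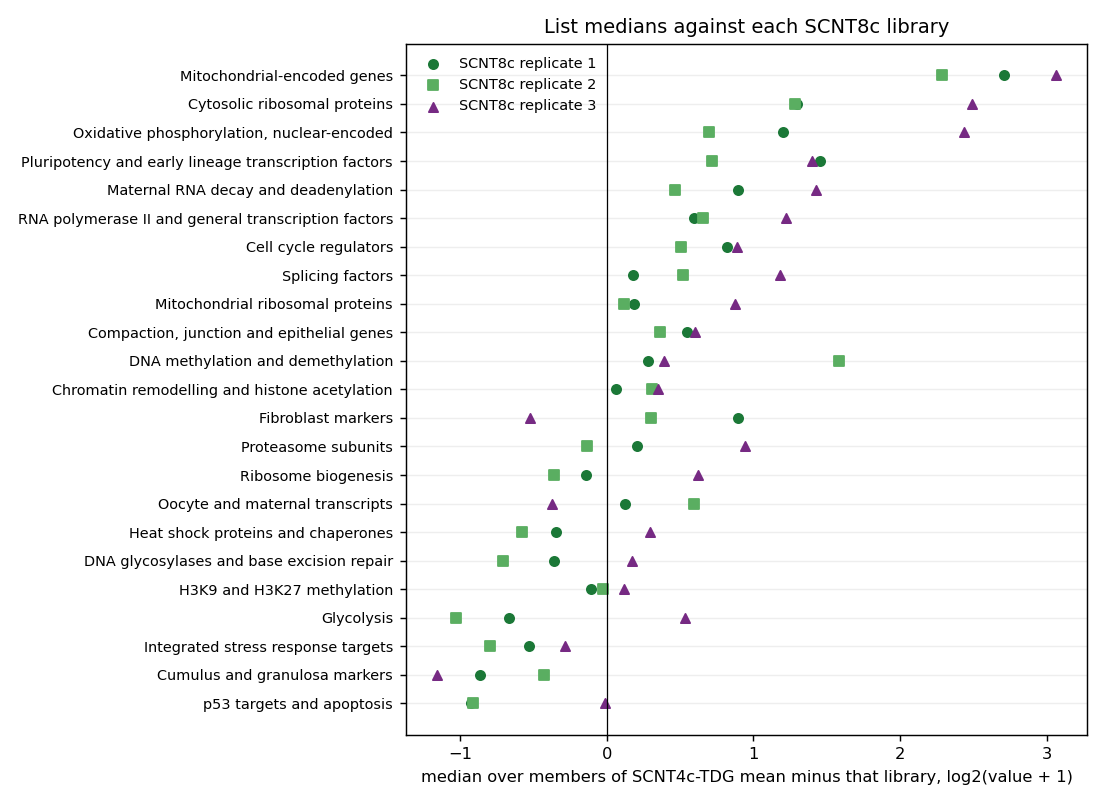
Median over the tested members of each gene list of the SCNT4c-TDG mean minus each SCNT8c library, on the log2(value + 1) scale; circles, squares and triangles are SCNT8c replicates 1, 2 and 3. Replicate 3 gives the highest median in lists of ribosomal protein (2.49) and oxidative phosphorylation genes (2.43), and turns the sign for glycolysis (0.53 against -0.67 and -1.03).

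Set beside all other embryos, 898 of the 2598 higher features had all 3 induced libraries above each of the 9 libraries of SCNT4c, SCNT4c-KG and SCNT8c, and 901 of the 2083 lower features had them below all 9. That is 34.6% and 43.3%, while 6.77% and 5.83% of all tested features lay above or below all 9. The 9 include the SCNT8c libraries by which the features were called, so the larger shares among called features were in part fixed by that selection. *TDG*, *TFAP2C*, *DPPA3* and *CYTB* were among the first, and *BHLHE22*, *TMED9*, *DDX27* and *HSPA2* among the second.

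Transcript lengths and upstream windows are given by direction as a description. The median length of the longest RefSeq transcript was 3389 nt for 1996 higher genes, 2684 nt for 1536 lower genes and 3538 nt for 8962 genes that did not change. In the quintile of shortest transcripts, 72 to 1636 nt, 21.4% of 2500 genes were higher and 13.6% lower. The next quintile, 1637 to 2743 nt, held 12.1% higher and 17.9% lower genes. In the quintile of longest transcripts, from 6394 nt, the shares were 17.3% and 7.73%. The median CpG number was 15 for both higher and lower genes and 12 for unchanged ones. The AP-2 motif GCCNNNGGC, searched on both strands as the motif of the TFAP2C family, was in 23.0% of higher, 22.2% of lower and 21.7% of unchanged windows, and in 20.3% of all 25811 windows read. CCAAT was in 34.5%, 36.6% and 32.1% (31.3% of all), and TATAAA in 8.88%, 7.81% and 8.63% (10.4% of all), both also searched on both strands. These shares describe letters in the windows and not binding.

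**Figure D5:**
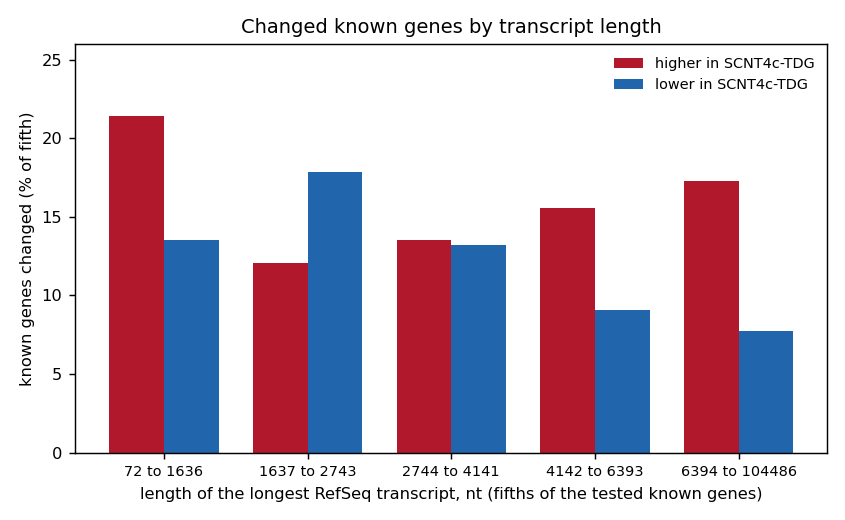
Share of tested known genes that were higher (red) or lower (blue) in SCNT4c-TDG, in quintiles of the length of the longest RefSeq transcript (x axis, nt). Higher genes are most frequent among the shortest transcripts (21.4%), and lower genes in the next quintile (17.9%) and least frequent among the longest (7.73%).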

How the data were processed

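For 15 libraries (5 groups, 3 each) the authors amplified cDNA with a SMARTer kit and sequenced it. Per the labels and methods, CASAVA 1.8.2, Trimmomatic 0.39, STAR 2.5.3a on Sscrofa11.1 (uniquely mapped reads), StringTie 2.1.2, HTSeq and DESeq2 were used. The deposited values are gene read counts that the authors divided by 1 factor per library, a normalised signal. Whole reads were recovered for 100% of values (tolerance 0.01 read). Of 43535 entries, 241 repeated ones were removed, which left 28224 known genes and 15070 assembled transcripts. No strand setting is given in the sources used here, so overlapping and antisense genes cannot be separated.

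SCNT4c-TDG was compared with SCNT8c by limma 3.58.1 (R 4.3.3; empirical Bayes with trend) on log2(value + 1), over the 12 embryo libraries and features with a mean of at least 10, with Benjamini-Hochberg adjustment over all of them; fold changes on this scale understate those of low genes. A feature changed with an adjusted p under 0.05 and above 2-fold. The steps were tested on simulated data. The exact two-sided permutation test of 3 against 3 libraries cannot go below 0.1, which every pair of non-overlapping groups reached. Fibroblasts stayed outside the fit. Alternatives were pseudocounts of 0.1 and 10, no filter, a mean of 50, equal totals, quantile normalization, edgeR 4.0.16 and DESeq2 1.42.0 on recovered reads, the 2 groups alone with and without a replicate block, array weights, summed loci and each library left out.

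Named genes were *TDG*, *KDM4A* and *EZH2*; the 12 largest rises and falls of genes with a symbol, called also without SCNT8c replicate 3, without overlapping libraries and averaging 100 or more in one group; the 2 largest of each without one; up to 4 changed members of each of 23 lists; and 10 genes set by name, *GAPDH* among them. The members and lists were chosen with earlier results of these data known, and *POU5F1*, *HNRNPA1* and genes that only complete a list's count were named after their values were seen. RefSeq annotation of the same build matched 99.9% of known genes, and 25811 upstream windows were read. Some items chosen by these rules are not reported here.

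SCNT8c replicate 3 carries another number in the sample description than in its title, and the title was used. The labels do not say whether replicates came from separate cultures, so p-values measure the spread between these libraries. Intervals and floors cover counting error only. No library pair was found to be a repeat of one library.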

Additional observations from a re-analysis of the deposited data

How the results depend on the processing

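Over 19 alternatives, the number of changed features ran from 3285 to 6418, against 4681, with 1783 to 3434 higher and 1490 to 2991 lower; every count stayed within 1.5 times the reported one. Leaving out 1 library gave 3285 to 5533 changed, 1783 to 3103 higher and 1490 to 2430 lower features; the lowest counts came without an SCNT4c-TDG library (3285 to 3357) and the highest without SCNT8c replicate 3. The fit of the 2 groups without SCNT8c replicate 3, added after seeing the data, gave 6418. The share of calls that were higher was 55.5%, against 49.9% with a minimum mean of 50 and 59.4% with no filter. It was 64.1% with equal totals, 52.0% with edgeR and 48.8% with DESeq2. The scalings of equal totals, edgeR and DESeq2 moved the median log2 fold change of all features by 0.21, -0.21 and -0.26.

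Of 114 changed named genes, 98 kept direction and call in every alternative in which they were tested (17 to 19 per gene), and none changed direction. Those that lost the call most often were *CLDN4*, *CYP1A1* and *KDM7A* (8 alternatives each) and *COL1A2* (7). Leaving out another library than SCNT8c replicate 3 also moved some fold changes by more than 1.5 times. The log2 fold change became, without SCNT8c replicate 1, 7.27 for *PHLDA2*, -5.37 for *CYP1A1*, -6.25 for *C6H19orf12*, -5.63 for *NEIL2*, 5.18 for *NANOG*, -5.07 for *GDF15*, 6.51 for *KDM3A*, 3.64 for *DSP* and 7.06 for LOC106506288. Without SCNT8c replicate 2 it became -4.11 for *CYP1A1*, -5.11 for *ANXA6*, -6.33 for *DYNLL2*, -4.66 for *ACADS*, -4.62 for *NACC1*, -4.59 for *SNX11*, -4.50 for *VPREB3*, 2.80 for *DPPA3*, 3.02 for *ZAR1L*, 2.34 for *ZP3*, 3.37 for *MED14*, 5.86 for *RPS15A*, -3.19 for *GDF15*, 4.39 for *XPOT*, 4.70 for *KDM3A*, 1.44 for *KDM7A*, -1.89 for *GAPDH*, 7.53 for *S100A4*, -7.47 for MSTRG.130479 and -5.76 for MSTRG.22040. Without SCNT4c-TDG replicate 1 it became -5.09 for *SUMF2*, -4.54 for *C6H19orf12*, -3.66 for *SMUG1* and -3.64 for *CLDN4*, without replicate 2 -6.32 for *C6H19orf12* and without replicate 3 -5.31 for *ANXA6*, -4.38 for *VPREB3*, -4.52 for *RRP1*, -3.93 for *STC2* and -2.18 for *CLDN4*. Of 874 counts of list members under an alternative, 61 moved by more than 1.5 times. Replicate numbers are not stated to pair the samples. The deviations of same-numbered libraries from their group means correlated at 0.07, 0.03 and 0.20, which cannot decide whether they shared a preparation. With the replicate block the fit of the 2 groups called 3979 features, 2148 higher and 1831 lower, against 3758 without it.

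Limits are the 3 libraries per group, the spread of SCNT8c, values that are shares of a library and not amounts per embryo, and genes near 0, where folds are bounds.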
